A study of Rattus norvegicus with 8 samples.

Results

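The genes described here encode the matrix metalloproteinases (MMPs), the ADAMTS proteases and the tissue inhibitors of metalloproteinases (TIMPs). They were chosen by name from the array's annotation, as every gene whose symbol starts with Mmp, Adamts or Timp followed directly by a digit. The rule gave 44 of the 16633 genes measured: 22 Mmp, 18 Adamts and 4 Timp genes, covered by 643 probe sets. Retinas came from male Brown Norway rats 8 weeks old. In one group of 4 arrays the RNA was taken 4 h after a current had been applied to the eye through the cornea (transcorneal electrical stimulation, TES), and in the other group of 4 the animals had a sham treatment. The labels give no genetic change, drug or retinal disease in either group, and the stimulation settings are not given in the sources used here. Samples are numbered 1 to 4 in each group and no source ties an array to its own animal, so every p-value here rests on the spread of these arrays, some of which may be technical.

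MMPs and ADAMTS enzymes are zinc proteases that cut the proteins and proteoglycans of the extracellular matrix, and both are made as inactive precursors. TIMPs block them by occupying the active site. In the eye these enzymes act on the matrix around the photoreceptors, on the basement membranes of vessels and of the inner retina, and on Bruch's membrane under the pigment epithelium, where TIMP3 is deposited. Mutations in human TIMP3 cause Sorsby fundus dystrophy, a degeneration of the macula.

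Values are log2 GC-RMA signals, averaged over the probe sets of a gene, and differences are TES minus sham on that scale. Means are given with the SD over 4 arrays. Array medians lay between 5.32 and 5.41, and r between any pair of arrays, taken over genes (which are not replicates), was 0.9896 to 0.9945. As a guide to low signal the 1100 olfactory receptor genes served here, and a gene at or below their 95th percentile (3.10) is called low here. Signals of different genes are not set against each other, because their probes differ. The 7 rod genes checked, among them Gnat1 and Sag, all lay above that mark, as did all 6 Mueller glia genes.

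None of the 44 genes passed an adjusted p of 0.05 in limma, where 0.0% of all genes did, and the smallest adjusted p over all genes was 0.524. With TES, 22 of the 44 genes had the higher mean and 22 the lower, against 45.1% higher among all genes. Their median difference was 0.0074, against -0.013 for all genes, and the widest differences were -0.27 (Adamts2) and 0.29 (Mmp3). The 95% interval of the difference included 0 for 40 genes. The other 4, Timp1, Timp3, Adamts2 and Adamts8, were all lower after TES at an unadjusted limma p under 0.05, and no member was higher at that level. That direction depended on the scaling. With arrays centred on their median the members under 0.05 were again 4, but Mmp10, Mmp1b and Mmp20 were higher (0.29, 0.24 and 0.24) and Timp3 alone was lower (-0.16). With quantile normalization 3 members were under 0.05 (Adamts2, Adamts8 and Timp3), all lower. Without rescaling, 5.57% of all genes passed that unadjusted level (2.35% higher, 3.22% lower). The count of 4 was 1 without TES 4, 2 without sham 1 or sham 4, and 7 without TES 3. Adamts2 alone also met the 1.2 fold minimum that the series text adds, which 3.59% of all genes met. Groups did not overlap in Timp3 and Adamts8, with TES below sham in both, while 3.31% of all genes had groups that did not overlap (1.98% with TES below and 1.32% with TES above).

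**Figure D1:**
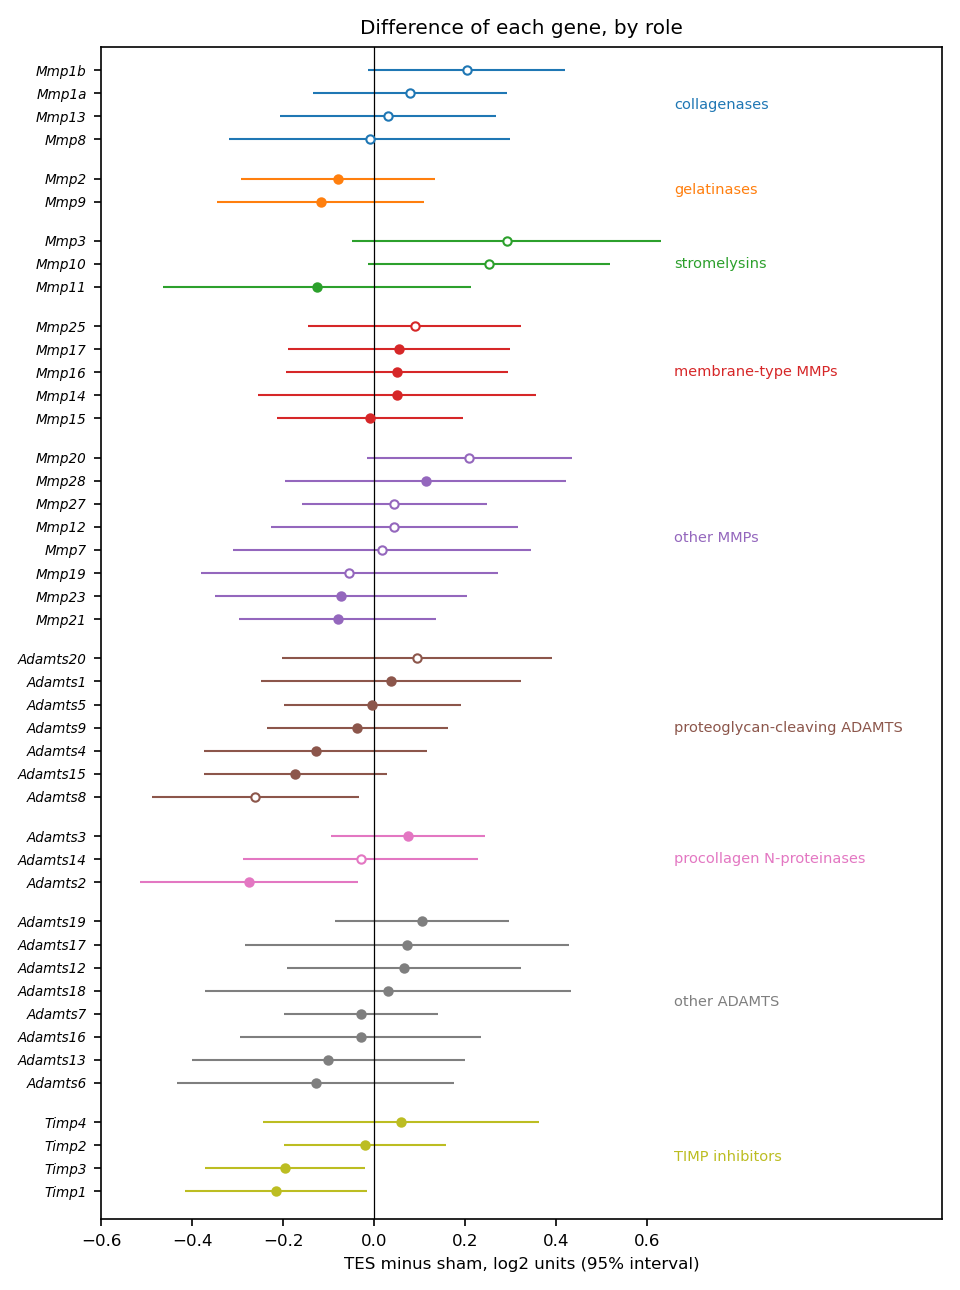
Difference between TES and sham for each of the 44 genes (log2 units, horizontal axis), grouped by role, with bars for the 95% interval from limma. Open circles mark genes of low signal, and the intervals of Timp1, Timp3, Adamts2 and Adamts8 lie below 0 while the other 40 include 0.

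The inhibitors limit how much active protease is free in the matrix. A lower mean after TES was found for 3 of the 4 Timp genes, of which Timp2 differed by just -0.020. None of the 4 had low signal, and 40.3% of all genes above the low mark had the higher mean. The median difference of the 4 was -0.11, against -0.024 for all genes above that mark. Timp3, which encodes the matrix-bound inhibitor, stood at 7.97, 8.04, 8.08 and 7.96 on TES 1 to 4. On sham 1 to 4 it stood at 8.26, 8.18, 8.12 and 8.28. Every TES array lay below every sham array, and the highest TES value was 0.036 under the lowest sham value. The means were 8.01 ± 0.059 and 8.21 ± 0.077, a difference of -0.20 (95% interval -0.37 to -0.021), or 12.7% lower on a linear scale, with a limma adjusted p of 0.843. Less RNA per cell and fewer cells that express a gene cannot be told apart in whole retina. Leaving out 1 array at a time gave differences from -0.23 to -0.17, and the unadjusted limma p stayed under 0.05 in 4 of those 8 fits.

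Timp1 encodes a soluble inhibitor that glia are known to make after injury. Its signals were 4.78, 4.64, 4.89 and 4.83 on TES 1 to 4, and 4.87, 4.95, 5.09 and 5.10 on sham 1 to 4. The groups overlapped by 1 pair of arrays, since TES 3 lay above sham 1. The means of 4.785 ± 0.11 and 5.001 ± 0.11 differed by -0.22 (95% interval -0.42 to -0.016), with a limma adjusted p of 0.869. With 1 array left out at a time the difference ran from -0.26 to -0.17, and the unadjusted p stayed under 0.05 in 4 of the 8 fits.

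Timp2, whose product inhibits MMP2 and also takes part in its activation at the cell surface, showed no such shift. It was at 7.95, 8.02, 8.01 and 7.84 after TES and at 8.07, 7.92, 7.93 and 7.99 after sham, and the groups overlapped widely. The difference was -0.020, and its 95% interval of -0.20 to 0.16 leaves room for a change as large as that of Timp3. Timp4, the remaining inhibitor, was at 3.39, 3.98, 3.90 and 3.97 after TES and 3.92, 3.86, 3.61 and 3.61 after sham. Its TES 1 array stood well below the other 3, and its difference of 0.060 (95% interval -0.24 to 0.36) was 0.20 without that array.

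**Figure D2:**
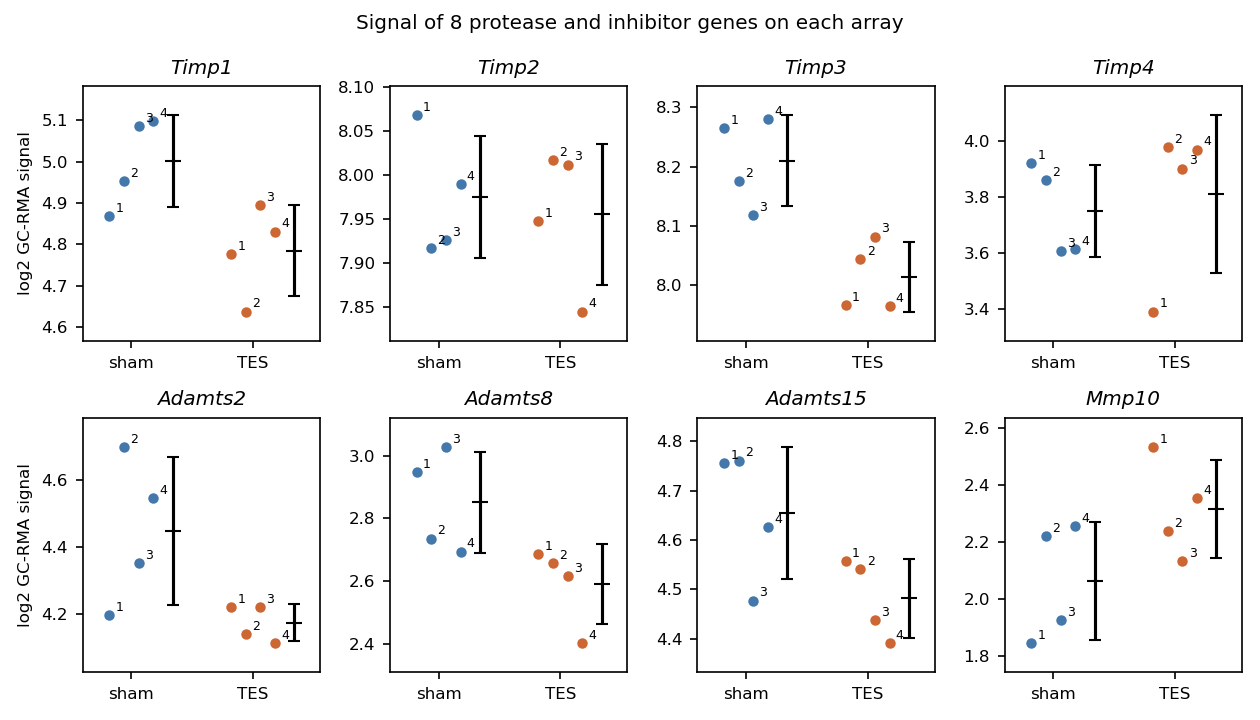
Log2 GC-RMA signal (vertical axis, own range in each panel) of the 4 Timp genes, Adamts2, Adamts8, Adamts15 and Mmp10 on each array, numbered 1 to 4 within sham (blue) and TES (orange), with black bars for mean ± SD. The TES points lie below all sham points for Timp3 and Adamts8, and the groups overlap in the other 6 panels.

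Single probe sets, which lie along the exons of a gene and are not replicates of each other, agreed more in direction for Timp3 than for Timp1. All 7 Timp3 probe sets were lower after TES, 1 of them at an unadjusted limma p under 0.05, with differences from -0.55 to -0.088. The widest, at probe set 10901238, was 5.47 ± 0.30 against 6.02 ± 0.21, with no overlap between groups, and it is the Timp3 probe set of lowest signal. The 5 Timp1 probe sets split, and 2 of them were lower at an unadjusted limma p under 0.05. Probe set 10936485 had 4.22 ± 0.32 after TES against 4.97 ± 0.43 after sham, and 10936483, of highest signal, was at 6.43 ± 0.31 and 6.88 ± 0.19. Probe set 10936484 went the other way, with 4.70 ± 0.38 and 4.18 ± 0.29. Timp1's difference was -0.45 with its probe set of highest mean alone (unadjusted limma p 0.029), and -0.11 when each array's median over the probe sets was used (0.53). For Timp3 the same 2 summaries gave -0.15 (unadjusted limma p 0.13) and -0.19 (0.21). These single probe sets were named after their values were seen. Of all probe sets 5.13% had an unadjusted limma p under 0.05, and the share without overlap was not counted.

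Of 15 genes marking the pigment epithelium, a tissue layer behind the retina that makes TIMP3, 10 had a lower mean after TES. The other 5 were higher, beside 45.1% of all genes: Best1 (0.23), Tyr (0.12), Rlbp1 (0.085), Mitf (0.012) and Mlana (0.00063). Of the 10, 5 had an unadjusted limma p under 0.05 (Serpinf1, Rpe65, Rdh5, Rgr and Ttr). At that level 3.22% of all genes were lower. None of the 15 passed the adjusted threshold. Best1 and Tyr of this list had low signal. The mean signal of the 15 markers ran from 5.14 to 5.71 over the TES arrays and from 5.46 to 5.68 over the sham arrays. It was lowest on TES 1 and TES 4 (5.14 and 5.17), which were also the lowest arrays for Timp3, and highest on TES 2 (5.71), where Timp3 still lay below every sham array. Among the sham arrays the marker mean was lowest on sham 4 (5.46), where Timp3 was highest (8.28). Rpe65, which encodes a visual cycle isomerase, had 4.68, 5.30, 5.37 and 4.58 on TES 1 to 4 against 5.70, 5.57, 5.48 and 5.19 on sham 1 to 4. The part of pigment epithelium in the Timp3 difference was not tested. Lens markers were higher after TES in 6 of 7, beside 45.1% of all genes. Mip and Crygc were higher at an unadjusted limma p under 0.05, as were 2.35% of all genes. Crygc, Lim2 and Bfsp1 had low signal. Mean signals of the lens markers ran from 3.63 to 5.07 after TES and from 3.31 to 4.42 after sham. All 4 erythrocyte genes had the higher mean, with low signal in Slc4a1 and Alas2. Mean signals of the microglia and leukocyte markers ran from 3.77 to 4.00 after TES and 3.93 to 4.11 after sham, and those of the 3 astrocyte markers from 3.92 to 4.17 and from 3.93 to 4.32.

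Among the proteases, the gelatinases Mmp2 and Mmp9 cut denatured collagen and the collagen of basement membranes. Mmp2 was at 4.09, 4.06, 3.89 and 4.02 after TES and 3.90, 4.06, 4.27 and 4.16 after sham. Mmp9 was at 4.20, 4.20, 4.44 and 4.30 after TES and 4.37, 4.54, 4.17 and 4.52 after sham. The groups overlapped in both genes. Differences were -0.080 (95% interval -0.29 to 0.13) for Mmp2 and -0.12 (95% interval -0.35 to 0.11) for Mmp9, each within the spread between arrays. With 1 array left out Mmp2 ran from -0.15 (without sham 1) to -0.022 (without sham 3) and Mmp9 from -0.19 (without sham 3) to -0.070 (without sham 2). Each array's median over the probe sets gave -0.31 for Mmp2, and the probe set of highest mean gave -0.43 for Mmp9. All 14 probe sets of Mmp9 lay above the low mark, and 8 of them were lower after TES.

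The membrane-type MMPs are held at the cell surface, where Mmp14 activates the Mmp2 precursor. Mmp14 was at 5.26, 5.17, 5.34 and 5.20 after TES and 5.32, 4.73, 5.27 and 5.45 after sham. Its sign depended on the low value on sham 2 and on how probe sets were summarized. The difference was 0.050 (95% interval -0.26 to 0.36) with all arrays and -0.11 without sham 2. Each array's median over the probe sets gave -0.057, and the probe set of highest mean gave -0.16. Mmp15 was at 6.03, 6.17, 6.01 and 6.14 after TES against 6.01, 6.14, 6.27 and 5.95 after sham, with means that differed by -0.0090 (95% interval -0.21 to 0.20). The groups overlapped throughout. Mmp16 was at 4.86, 4.71, 5.18 and 4.91 after TES and 4.99, 4.95, 4.78 and 4.73 after sham. For Mmp17, which is anchored by a lipid, the values were 4.54, 4.40, 4.30 and 4.75 after TES and 4.32, 4.60, 4.48 and 4.37 after sham. Their differences of 0.051 and 0.056 lay within the spread between arrays, and Mmp25, the last of the group, had low signal and a difference of 0.089.

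The collagenases and stromelysins include the MMPs best known for being switched on by the transcription factor AP-1, a dimer of Fos and Jun proteins. In the RefSeq annotation of the assembly GRCr8, 43 of the 44 symbols were found, and 9 of them lie in a row on chromosome 8, from Mmp13 to Mmp7. The 10 protein-coding genes of that stretch are all Mmp genes, the other being Mmp1, which the array's symbol Mmp1a does not match. RefSeq promoter windows of 300 bases, from 250 before to 50 after the start of the gene, were at hand for 32 members. The letters TGAGTCA, the AP-1 element, were searched on both strands (TGACTCA is the same element on the other strand). They were in 5 of those 32 members, all 5 among the 9 genes of the chromosome 8 row, and in 5.04% of all 27457 genes with a window. The window of RefSeq's Mmp1 holds the element too. Whether the array's Mmp1a is that gene was not settled, so it is not among the 5 or the 9. The sites are printed with 17 bases on each side, 5′ to 3′ along the gene, with the element in capitals, because the values of Fos and Jun genes in the same retinas are given beside these members.
Mmp13: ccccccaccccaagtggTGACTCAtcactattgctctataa
Mmp12: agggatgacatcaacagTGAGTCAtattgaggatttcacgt
Mmp3: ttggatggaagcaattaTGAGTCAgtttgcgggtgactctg
Mmp10: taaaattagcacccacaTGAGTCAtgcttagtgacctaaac
Mmp7: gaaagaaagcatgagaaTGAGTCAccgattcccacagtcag
All 5 are on the plus strand of GRCr8: chr8:12782746-12782786 for Mmp13, chr8:12866548-12866588 for Mmp12, chr8:12925193-12925233 for Mmp3, chr8:12974629-12974669 for Mmp10 and chr8:13132946-13132986 for Mmp7. The first base of the element is at -66, -87, -71, -61 and -80 from the start site at which RefSeq's window is set, in that order, and each window holds it once. For Mmp3 that site is not the first base of the annotated gene, and for the other 4 it is. A match describes these letters only and does not show that a factor binds there.

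All 9 genes of the chromosome 8 row had low signal, and 8 of them had the higher mean after TES, with a median difference of 0.045 and none at an unadjusted p under 0.05. Under other settings some of them passed that level, all higher after TES: Mmp10, Mmp1b and Mmp20 with centred arrays, Mmp27 (0.56) and Mmp3 (0.44) with each array's median over the probe sets, Mmp20 (0.67) with the probe set of highest mean, and Mmp1b, Mmp20 and Mmp27 without probe sets of low signal. Leaving out an array also brought 1 or 2 of them under 0.05 in 6 of 8 cases. Among all 4130 genes of low signal, 59.3% had the higher mean after TES, with a median difference of 0.035. For the olfactory receptor genes the share was 67.6% and the median 0.065, so genes with signals as low as these leaned the same way. The 8 became 5 without TES 4, and 6 without TES 2, sham 1 or sham 2. The count rose to 9 without TES 1 or sham 4 and with arrays centred on their median. It was also 9 with each array's median over the probe sets and without probe sets of low signal. The part of low signal in this lean was not tested.

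Mmp3 (stromelysin-1) had the widest positive difference. It was at 2.66, 3.42, 2.85 and 2.93 after TES and 2.51, 2.55, 2.94 and 2.68 after sham, so that TES 2 stood highest and the groups otherwise overlapped. The difference of 0.29 (95% interval -0.049 to 0.63) was 0.14 without TES 2. Mmp10 (stromelysin-2) was at 2.53, 2.24, 2.13 and 2.36 after TES and 1.85, 2.22, 1.93 and 2.26 after sham. It differed by 0.25 (95% interval -0.013 to 0.52, limma adjusted p 0.886), and 7 of its 8 probe sets lay at or below the low mark. The other 3 of the 5 members found with the element, Mmp12 (macrophage elastase), Mmp13 (a collagenase) and Mmp7 (matrilysin), differed by 0.045, 0.031 and 0.018. Fos itself was at 6.53, 4.65, 6.96 and 5.58 on TES 1 to 4 and 4.41, 5.25, 5.03 and 5.71 on sham 1 to 4. Among the TES arrays Fos was highest on TES 3 and TES 1 and lowest on TES 2. The groups overlapped (difference 0.83, 95% interval -0.12 to 1.78), and whether these members follow Fos was not tested. Jun had 8.64, 9.16, 7.73 and 8.59 on TES 1 to 4 against 8.76, 8.91, 8.46 and 9.07 on sham 1 to 4, a difference of -0.27 (95% interval -0.82 to 0.27), and Fosb differed by 0.23 (95% interval -0.18 to 0.63). Of the rest of the row, Mmp1b and Mmp20 (the enamel protease) differed by 0.20 and 0.21, Mmp27 by 0.045 and Mmp8 (the collagenase of neutrophils) by -0.0097. Mmp1a, the other collagenase gene measured, differed by 0.079.

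Mmp11 (stromelysin-3), which cells release already active, had signal above the low mark. It was at 4.87, 5.15, 5.06 and 4.74 after TES and 4.87, 5.51, 4.79 and 5.15 after sham. The difference of -0.13 (95% interval -0.47 to 0.21) lay within the spread between arrays and was 0.017 without sham 2. Its 8 probe sets held a contrast: 7 were lower after TES, while 10829631 was at 5.82 ± 0.11 after TES and 5.32 ± 0.11 after sham, with every TES array above every sham array. That probe set had a limma adjusted p of 0.880 over all 213067 probe sets. It was named after its values were seen, and the share of all probe sets without overlap was not counted.

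The ADAMTS enzymes that cut aggrecan, versican and related proteoglycans are 7 of the members, and 5 of them had a lower mean after TES. Adamts8 was at 2.69, 2.66, 2.62 and 2.40 after TES and 2.95, 2.74, 3.03 and 2.69 after sham. The groups did not overlap, but TES 1 lay just 0.0095 below sham 4. Its difference was -0.26 (95% interval -0.49 to -0.033, limma adjusted p 0.843), and 8 of its 9 probe sets lay at or below the low mark. The difference ran from -0.31 to -0.20 with 1 array left out, and the remaining probe set alone gave -0.85. Adamts15 was at 4.56, 4.54, 4.44 and 4.39 after TES and 4.76, 4.76, 4.48 and 4.63 after sham, where sham 3 lay within the TES range. All 8 of its probe sets were lower after TES, from -0.35 to -0.072, none of them at an unadjusted p under 0.05, and the gene's difference was -0.17 (95% interval -0.37 to 0.028).

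**Figure D3:**
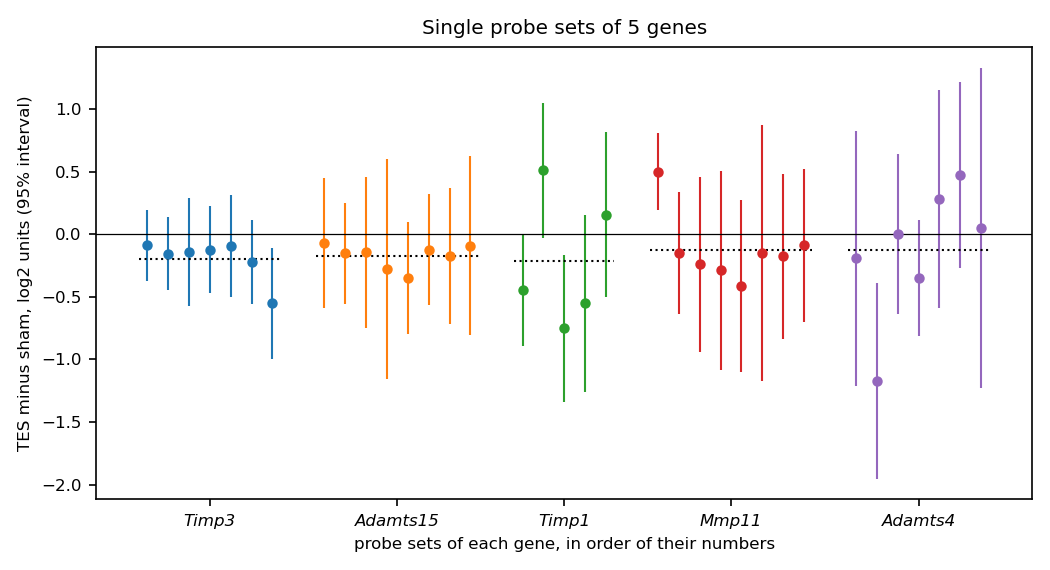
Difference between TES and sham (log2 units, vertical axis) at each single probe set of Timp3, Adamts15, Timp1, Mmp11 and Adamts4, with 95% intervals and a dotted line at the mean over the gene's probe sets. All 7 probe sets of Timp3 and all 8 of Adamts15 lie below 0, whereas those of Timp1, Mmp11 and Adamts4 lie on both sides.

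The best studied aggrecanases, averaged over their probe sets, differed by less than the spread between arrays. Adamts1 was at 6.21, 6.35, 5.94 and 5.94 after TES and 5.93, 6.37, 6.09 and 5.89 after sham, with sham 2 and TES 2 the highest of their groups. Adamts5 was at 7.34, 7.61, 7.55 and 7.40 after TES and 7.49, 7.55, 7.47 and 7.40 after sham. The groups overlapped in both, with differences of 0.037 (95% interval -0.25 to 0.32) and -0.0034 (95% interval -0.20 to 0.19). Adamts4 was at 3.86, 3.92, 3.87 and 3.93 after TES against 3.84, 4.36, 3.92 and 3.96 after sham. Its difference of -0.13 (95% interval -0.37 to 0.12) became -0.015 without sham 2, and its probe set 10765536 had 2.84 ± 0.72 after TES against 4.01 ± 0.22 after sham with no overlap. A single probe set of Adamts1, 10752849, had 8.75 ± 0.17 after TES against 8.21 ± 0.21 after sham with every TES array higher (limma adjusted p 0.941). Both single probe sets were named after their values were seen, and the share of all probe sets without overlap was not counted. Adamts9 and Adamts20 differed by -0.037 and 0.094.

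Of the procollagen N-proteinases, which trim the ends of fibrillar collagen precursors, Adamts2 had the widest negative difference of all 44 genes. It was at 4.22, 4.14, 4.22 and 4.11 after TES and 4.20, 4.70, 4.35 and 4.55 after sham, so that sham 1 fell within the TES range. The sham arrays were more spread, with means of 4.17 ± 0.055 after TES and 4.45 ± 0.22 after sham. The difference of -0.27 (95% interval -0.52 to -0.034, limma adjusted p 0.843) was -0.19 without sham 2 and -0.36 without sham 1, and -0.57 with each array's median over the probe sets. Of its 21 probe sets 16 were lower after TES. Adamts3, which acts on the precursor of VEGF-C as well as on procollagen, was at 7.48, 7.45, 7.51 and 7.51 after TES and 7.51, 7.39, 7.33 and 7.42 after sham. It differed by 0.075 (95% interval -0.095 to 0.25). Adamts14, of low signal, differed by -0.029.

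The other 8 Adamts genes split evenly, 4 higher and 4 lower, with differences from -0.13 for Adamts6 to 0.11 for Adamts19. Adamts7, which cuts cartilage oligomeric matrix protein, was at 4.93, 4.91, 4.90 and 5.06 after TES and 5.02, 4.97, 4.98 and 4.95 after sham. TES 1, 2 and 3 lay below all sham arrays and TES 4 above them, for a difference of -0.029 (95% interval -0.20 to 0.14). Adamts13, the protease of von Willebrand factor, differed by -0.10, and 3 further probe sets that the annotation shares between it and a second gene were not used. Of the 8 MMPs outside the classes above, Mmp28 (epilysin) had 0.11, Mmp19, Mmp21 and Mmp23 had -0.054, -0.080 and -0.073, and Mmp7, Mmp12, Mmp20 and Mmp27 are given with the chromosome 8 row.

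Signal divided the members. Of the 44 genes 15 had low signal (12 Mmp and 3 Adamts), against 24.8% of all genes. Among those 15, 11 had the higher mean after TES, beside 59.3% of all low genes, and among the 29 above the mark 11 did, beside 40.3% of all genes above it. On each side of the mark the median difference of the members (0.045 and -0.029) was close to that of all genes there (0.035 and -0.024).

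**Figure D4:**
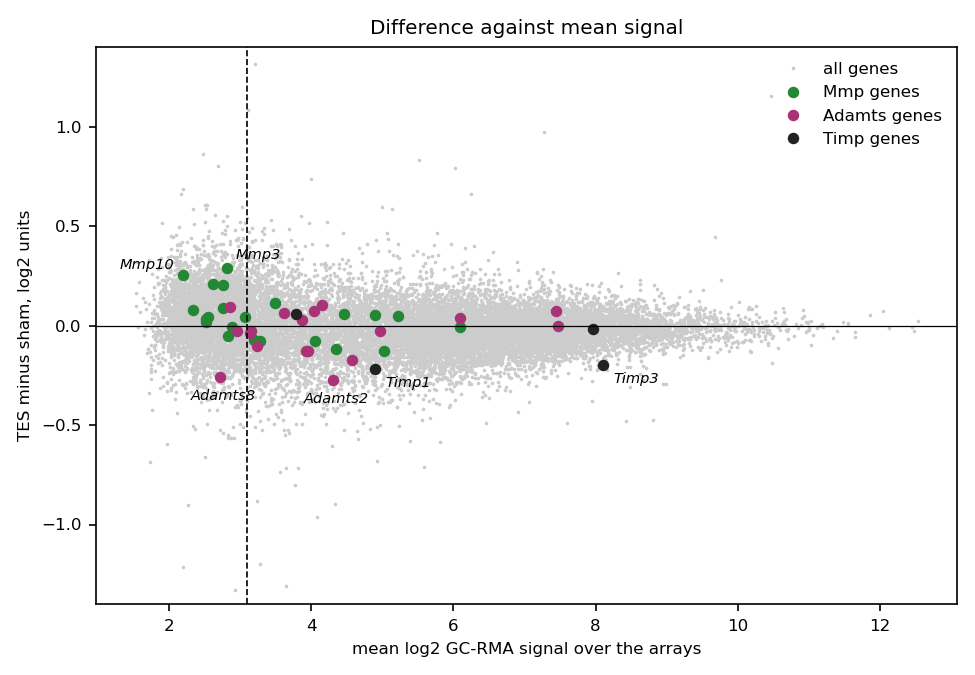
Difference between TES and sham (log2 units, vertical axis) against the mean log2 GC-RMA signal over the 8 arrays for all genes (grey) and the Mmp, Adamts and Timp genes (colours). The dashed line marks the 95th percentile of olfactory receptor genes (3.10), and the 15 members to its left include Mmp3 and Mmp10 above 0 and Adamts8 below it.

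At single probe sets, 42 of the 643 had an unadjusted limma p under 0.05, 24 higher and 18 lower after TES, against 5.13% of all probe sets, and none passed the adjusted threshold. Wide single differences were found within genes whose mean differed little. Adamts9, whose product cuts versican, differed by -0.037 over 53 probe sets. Its probe set 10864204 was at 4.68, 4.05, 4.08 and 4.75 after TES and 2.61, 3.66, 2.81 and 2.71 after sham, a difference of 1.44 with no overlap and a limma adjusted p of 0.725. Another of its probe sets, 10864220, was at 6.00 ± 0.43 and 4.88 ± 0.27. Of the 53 probe sets 23 were higher after TES and 30 lower, and the weight of single probe sets in the gene's mean was not computed. Mmp12 held a similar one in 10907870, with 3.43 ± 0.36 after TES and 2.32 ± 0.33 after sham. These probe sets of Adamts9 and Mmp12, like those named above for Adamts1, Adamts4, Mmp11, Timp1 and Timp3, were chosen after their values were seen. The share of all probe sets whose groups do not overlap was not counted.

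Other genes of matrix turnover were read from the same fit. The 94 genes measured on 8 lists gave 35 higher and 59 lower after TES, a median difference of -0.037, none past the adjusted threshold and 6 at an unadjusted limma p under 0.05, all lower. Over all genes 5.57% passed that level, and 45.1% were higher (40.3% of those above the low mark, where all but 12 of the 94 lay), so the counts of the lists are given as a description. Of the ADAMTS-like genes and papilin, whose products share ADAMTS domains without protease activity, 5 of 6 were lower. Adamtsl1 was at 5.03 ± 0.12 after TES and 5.32 ± 0.043 after sham, with no overlap (limma adjusted p 0.817), and Adamtsl4 at 5.42 ± 0.085 and 5.65 ± 0.13. Of the Adam proteases, membrane-bound relatives that shed surface proteins, 7 of 11 were lower, with Adam11, which lacks protease activity, at 7.10 ± 0.13 against 7.32 ± 0.042 and no overlap, and Adam28, of low signal, differing by -0.16.

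Basement membrane and elastic matrix genes were lower in 13 of 20. Fbln5, which helps to assemble elastic fibres, had 3.95 ± 0.34 after TES against 4.40 ± 0.12 after sham, and Col4a3, a basement membrane collagen chain, at 3.90 ± 0.12 and 4.15 ± 0.18. The list of proteoglycans that bind hyaluronan, their link proteins, the hyaluronan synthases and a matrix glycoprotein was lower in 8 of 14. Differences were -0.38 for the synthase Has3 and 0.26 for Has1. MMP regulators were lower in 12 of 17, none at an unadjusted p under 0.05, and the first by p were Ets2 (a transcription factor) with -0.20 and Lrp2 (an endocytic receptor) with -0.15. The plasminogen system, which activates MMP precursors, had 4 higher and 5 lower, with -0.21 for Serpini1 (neuroserpin, an inhibitor of tissue plasminogen activator) and 0.18 for Serpinb2 (an inhibitor of plasminogen activators). The other matrix proteases were lower in 9 of 14, and the first by p were Mme (neprilysin) with 0.14 and Ctsb (cathepsin B) with -0.081. The VEGF and TIMP3 partner list had 3 of 4 higher, with 0.11 for Vegfa and 0.10 for Agtr2 (an angiotensin receptor). Of the genes named in this paragraph Has1, Serpinb2, Mme and Agtr2 had low signal, and 59.3% of all genes of low signal were higher after TES.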

How the data were processed

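Whole rat retina was measured on 8 Affymetrix Rat Gene 1.0 ST arrays, 4 after TES and 4 after sham, grouped by the titles in the labels. The authors deposited a log2 GC-RMA signal for each of 213067 probe sets. Per the series text they computed it in GeneSpring GX, and the submitters' processing notes name GCRMA without a version. The series text gives no log base. Base 2 was inferred because the values reach 13.2, which as a natural logarithm would be 558550, beyond the 65535 of a 16-bit scanner. The scaling between arrays stays unknown, and genes are not centred. For the RNA kit and the number of labelling cycles, the sample labels state something else than the series text. Depth does not apply to arrays; their number limits the precision.

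Probe sets to which the platform annotation gives exactly 1 symbol (172924) were averaged per gene and array, with no filter. TES and sham were compared in limma 3.58.1 (lmFit and eBayes, R 4.3.3) with Benjamini-Hochberg adjustment over all 16633 genes, or over all probe sets for single probe sets. SAM, which the series text names, was not run here. Alternatives were other summaries of probe sets, 2 scalings, 2 filters on low signal, 2 other variance models, the replicate number as a block and leaving out each array. One more, leaving out probe sets of low signal, was chosen after seeing the data.

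Members and lists were chosen with earlier results of these data known. Named with every array are the Timp genes, Mmp2, Mmp3, Mmp9, Mmp14, Adamts1, Adamts4 and Adamts5, the 5 Mmp and 5 Adamts genes of highest mean signal, and the 5 genes of smallest p (21 in all). List genes are named at an unadjusted p under 0.05 or as the first 2 by p. The chromosome 8 genes, Fos, Fosb, Jun and single probe sets were named after their values were seen. Promoter letters are from RefSeq, GRCr8.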

Additional observations from a re-analysis of the deposited data

Results flagged for a closer look

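Each member's 4 TES and 4 sham arrays were checked for a value standing far from the other 3 (Dixon's test at 95%). Chance flags about 1 in 20 such groups, and 4 of 88 were flagged. Timp4 was at 3.39 on TES 1, with the other TES arrays between 3.90 and 3.98. Mmp21 was at 3.09 on TES 1, with the others between 3.29 and 3.30. Adamts13 was at 3.32 on TES 4, with the others between 3.13 and 3.15. Adamts9 was at 3.01 on sham 1, with the others between 3.19 and 3.21.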

How the results depend on the processing

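In all 18 alternatives for genes, and in both for single probe sets, limma or the unmoderated test gave no member, no gene of the matrix turnover lists and no gene at all past an adjusted p of 0.05. The count of all genes at the study's thresholds was 597, and 367 without the lowest quartile of signal, 129 without genes below the median signal, 348 with the unmoderated test and 618 to 757 with 1 array left out. The share of these genes higher after TES was 45.4%, and 69.8% with arrays centred on their median, 29.7% without the lowest quartile and 23.3% without genes below the median signal. Members at an unadjusted p under 0.05 were 1 without genes below the median signal (7 members left), 2 with trend and robust moderation, 7 without probe sets of low signal (3 higher, 4 lower) and 1 to 7 with 1 array left out. With centred arrays they were 4, of which 3 were higher after TES, and with quantile normalization 3, all lower. Members with the higher mean after TES were 29 with centred arrays, 11 (of 29) and 3 (of 7) under the filters, and 19 to 25 with 1 array left out.

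Timp1, Timp3, Adamts2, Adamts8, Adamts15, Mmp3, Mmp10, Mmp2, Mmp9, Adamts3 and Timp4 kept their sign in every alternative run for them. The others did not, and the cause was not tested. With each array's median over the probe sets the difference was -0.057 for Mmp14, -0.15 for Adamts1, 0.075 for Adamts4, 0.029 for Adamts5, 0.044 for Mmp15 and -0.19 for Mmp17. With the probe set of highest mean it was 0.055 for Timp2, -0.16 for Mmp14, 0.087 for Mmp15, -0.018 for Mmp16 and 0.13 for Adamts7. Centred arrays gave 0.013 for Timp2, 0.029 for Adamts5, 0.023 for Mmp15 and 0.0034 for Adamts7, quantile normalization 0.011 for Adamts5 and 0.015 for Mmp15, and leaving out probe sets of low signal -0.0083 for Mmp17. With 1 array left out the range was -0.040 to 0.017 for Timp2, -0.11 to 0.14 for Mmp14, -0.042 to 0.14 for Adamts1, -0.050 to 0.043 for Adamts5, -0.056 to 0.050 for Mmp15, -0.22 to 0.017 for Mmp11, -0.037 to 0.12 for Mmp16 and -0.030 to 0.12 for Mmp17.

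Same-numbered TES and sham arrays did not deviate together in every pair (r of 0.12, 0.13, 0.0056 and -0.12 for numbers 1 to 4). Such r, taken over genes, cannot tell whether the arrays were paired. With the replicate number as a block, 3 members had an unadjusted limma p under 0.05 (Adamts2, Adamts8 and Timp1) and 53 single probe sets instead of 42. For Timp3 the unadjusted limma p was 0.061 with the block and 0.031 without it.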
